A study of Mus musculus with 30 samples.

Results

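The genes described here are 10 members of the MHC class II and costimulation system of the mouse: H2-Aa, H2-Ab1, H2-Eb1, Cd74, Ciita, H2-DMa, H2-DMb1, Cd86, Cd40 and Cd80. They were taken by symbol from the 51752 genes of the deposited count table, and all 10 were found. The study asked what the cytokine IL-34 does for microglia, the macrophages of the brain tissue. It compared Il34 heterozygous mice (labelled Het, 4 animals) with Il34 knockout mice (KO, 3 animals), and wild-type mice given a blocking antibody against IL34 (anti-IL34, 4 animals) with wild-type mice given a control antibody against gp120 (anti-gp120, 4 animals). Each of the 15 animals gave 2 RNA-seq libraries, one of whole forebrain and one of cells pulled with CD11b magnetic beads from the other hemisphere, called isolates here. The controls of the genotype experiment therefore carry 1 disrupted Il34 allele, and the 2 experiments differ in genotype as well as in treatment. The animals were perfused with saline, both sexes are present in every arm, and the labels give no age, strain or antibody dose.

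MHC class II molecules are pairs of an alpha and a beta chain that show peptides from the endosome to CD4+ T cells. The invariant chain, encoded by Cd74, fills the groove of a newly made molecule and takes it to the endosome, where H2-DM helps to exchange the remnant of that chain for a peptide. Ciita encodes the coactivator that turns most of these genes on, by joining the factors already seated on the X and Y boxes of their promoters. A T cell also needs a second signal, which CD80 and CD86 give through CD28, and CD40 receives signals back from T cells. Microglia of the healthy brain make little class II protein, whereas border-associated macrophages and dendritic cells of the meninges and choroid plexus are known for more of it.

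Promoter sequence is shown for the members that carry the X and Y boxes, because they let a reader see the known class II promoter code in 2 chains of the class II molecules and in 1 chain of H2-DM. RefSeq entries on build GRCm38.p6 were held for 5 of the 10 members. The 150 bases before the RefSeq start are printed for the 3 entries that hold both motifs, with capitals for the X box start (letters CTNGNAAC) and the Y box core (TGATTGG).
H2-Aa, chr17:34287824-34287973, minus strand: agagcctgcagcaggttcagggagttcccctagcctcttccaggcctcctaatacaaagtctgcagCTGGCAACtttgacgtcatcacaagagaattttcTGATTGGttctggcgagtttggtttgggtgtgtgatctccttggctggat
H2-Eb1, chr17:34305717-34305866, plus strand: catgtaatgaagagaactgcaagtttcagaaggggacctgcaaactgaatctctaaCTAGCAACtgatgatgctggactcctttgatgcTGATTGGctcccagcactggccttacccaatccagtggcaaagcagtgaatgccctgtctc
H2-DMb1, chr17:34153041-34153190, plus strand: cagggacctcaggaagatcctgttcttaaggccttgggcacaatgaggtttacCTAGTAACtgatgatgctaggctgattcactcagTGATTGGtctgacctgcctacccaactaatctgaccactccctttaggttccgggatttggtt
The first base of the X motif lay 84, 94 and 97 bases before the start in H2-Aa, H2-Eb1 and H2-DMb1, and the Y motif followed it after 34, 33 and 34 bases. Both strands of each 300-base entry were searched, and the motifs do not overlap each other. Of 32851 promoters of that length, 13.15% held the X letters, 7.82% the Y letters and 1.065% both. For H2-DMb1 the GENCODE span starts upstream of the RefSeq start, at base 34153072, so both of its boxes lie inside that span. The letters were chosen after these promoters had been read, so the matches are a description. Neither motif was found in the 2 entries of H2-DMa or in that of Cd80. The H2-DMa entries, chr17:34122582-34122881 and chr17:34125268-34125567, lie inside the GENCODE span of the gene. Sequence before any other start of H2-DMa was not searched. H2-Ab1, Cd74, Ciita, Cd86 and Cd40 had no entry.

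On GRCm38 (annotation GENCODE M21) the class II genes lie together on chromosome 17: H2-Aa at chr17:34282744-34287823, H2-Ab1 at chr17:34257689-34269419, H2-Eb1 at chr17:34305867-34316674, H2-DMa at chr17:34119541-34139101 and H2-DMb1 at chr17:34153072-34160230. Cd74 lies at chr18:60803848-60812652, Ciita at chr16:10480059-10528418, Cd86 at chr16:36603869-36666081, Cd80 at chr16:38455561-38496335 and Cd40 at chr2:165055627-165072948. The deposited gene lengths of all 10 equal the span from first to last base, introns included, so reads appear to have been counted over whole genes. Reads under another gene's span may then be lost or shared. Other genes cover 71.2% of the exon bases of Ciita, all of it Dexi on the opposite strand, 14.8% of those of H2-DMa, partly Brd2 on the opposite strand, 9.3% of those of H2-Eb1, 0.7% of those of Cd74 and 0% of those of the other 6. H2-DMb1 shares 22.65% of its 50-base words with other genes, mainly its close copy H2-DMb2, so its counts are uncertain where reads could be split between the copies.

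The libraries held 15100000 to 75200000 counted reads, rounded to 3 significant digits. Forebrain Il34 averaged 21.4 ± 2.37 CPM (counts scaled to a common library total; SD, n = 4) in Het and 7.72 ± 0.991 (SD, n = 3) in KO. Itgam, the gene of CD11b itself, was listed at 0 to 3 counts in every library, and the same-strand gene Gm49368 covers 99.1% of its exon bases. The label of the isolates was therefore checked on 12 other microglia markers, whose summed level was 10940 to 19500 CPM in Het isolates and 14060 to 18540 in anti-gp120 isolates, against 246 to 278 and 397 to 492 CPM in the matching forebrains. Oligodendrocyte markers still summed to 2776 to 16750 CPM in the isolates, so these are enriched and not pure cells. Choroid plexus markers summed to 1122 to 3833 CPM in the isolates of the genotype experiment, 5.12 to 7.44 CPM in those of anti-gp120 and 5.01 to 2087 CPM in those of anti-IL34. Levels are CPM scaled by edgeR's TMM factors and are listed in the order of the animal numbers in each arm, and "passed" means an adjusted p under 0.05 in edgeR's quasi-likelihood test over all genes tested, with sex in the model.

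All 10 members were higher in the isolates than in the forebrain of the 8 control animals, where 40.8% of the 18752 tested genes were higher. The log2 difference was 7.17 for Cd86, 6.74 for H2-Aa, 6.63 for Cd74, 6.44 for both H2-Eb1 and H2-Ab1, 4.59 for Cd80, 4.49 for H2-DMb1, 3.16 for Ciita, 1.93 for Cd40 and 1.66 for H2-DMa. The median over the members was 5.52, beside a median of -0.04 over all genes tested. In 15 forebrain libraries the 3 class II chains rested on 4 to 60 reads each, which leaves their forebrain levels with a large counting error. Per kilobase of exon, scaled to the same total over all genes in every library, the order of mean levels in the 15 isolates was Cd86 (328), Cd74 (308), H2-Eb1 (76.4), H2-Ab1 (45.5), H2-Aa (40.5), H2-DMb1 (23.1), H2-DMa (22.8), Cd80 (21.9), Cd40 (4.55) and Ciita (0.579). The first 2 changed places between arms: Cd74 had the higher mean in Het (394 against 351 for Cd86) and KO isolates (278 against 150.1), Cd86 in anti-gp120 isolates (506 against 297), and the anti-IL34 means were 255 for Cd74 and 259 for Cd86, all on this exon scale. H2-DMb1, H2-DMa and Cd80 lay close together and stood in that order in no single arm: H2-DMa led in Het (29.5) and anti-gp120 (30.9), Cd80 in KO (14.4) and H2-DMb1 in anti-IL34 (17.1). In the forebrain H2-DMa led with 12.2 on the same scale, followed by Cd74 with 4.66 and Cd86 with 3.2 as means of all 15 libraries, while in anti-gp120 forebrain Cd86 (4.92) came before Cd74 (3.49). H2-DMb1, the partner chain of H2-DMa, had a forebrain mean of 1.515. Other genes, partly Brd2, cover 14.8% of the exon bases of H2-DMa, and their part in its forebrain level was not tested. Divided by the whole gene span instead, Cd74 (112) came before H2-Aa (57.8) and Cd86 (37.3) in the isolates. In anti-gp120 isolates alone, H2-Aa (60.2) and Cd86 (60.5) were about level on the span scale. The deposited TPM gave Cd74 a higher mean than Cd86 in every isolate arm. These means were 439.5 against 119.2 in Het, 403 against 67.7 in KO, 318 against 169 in anti-gp120 and 351 against 109 in anti-IL34. In anti-gp120 forebrain they were 4.37 against 1.9. The order of Cd74 and Cd86 thus depends on the scale used.

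**Figure D1:**
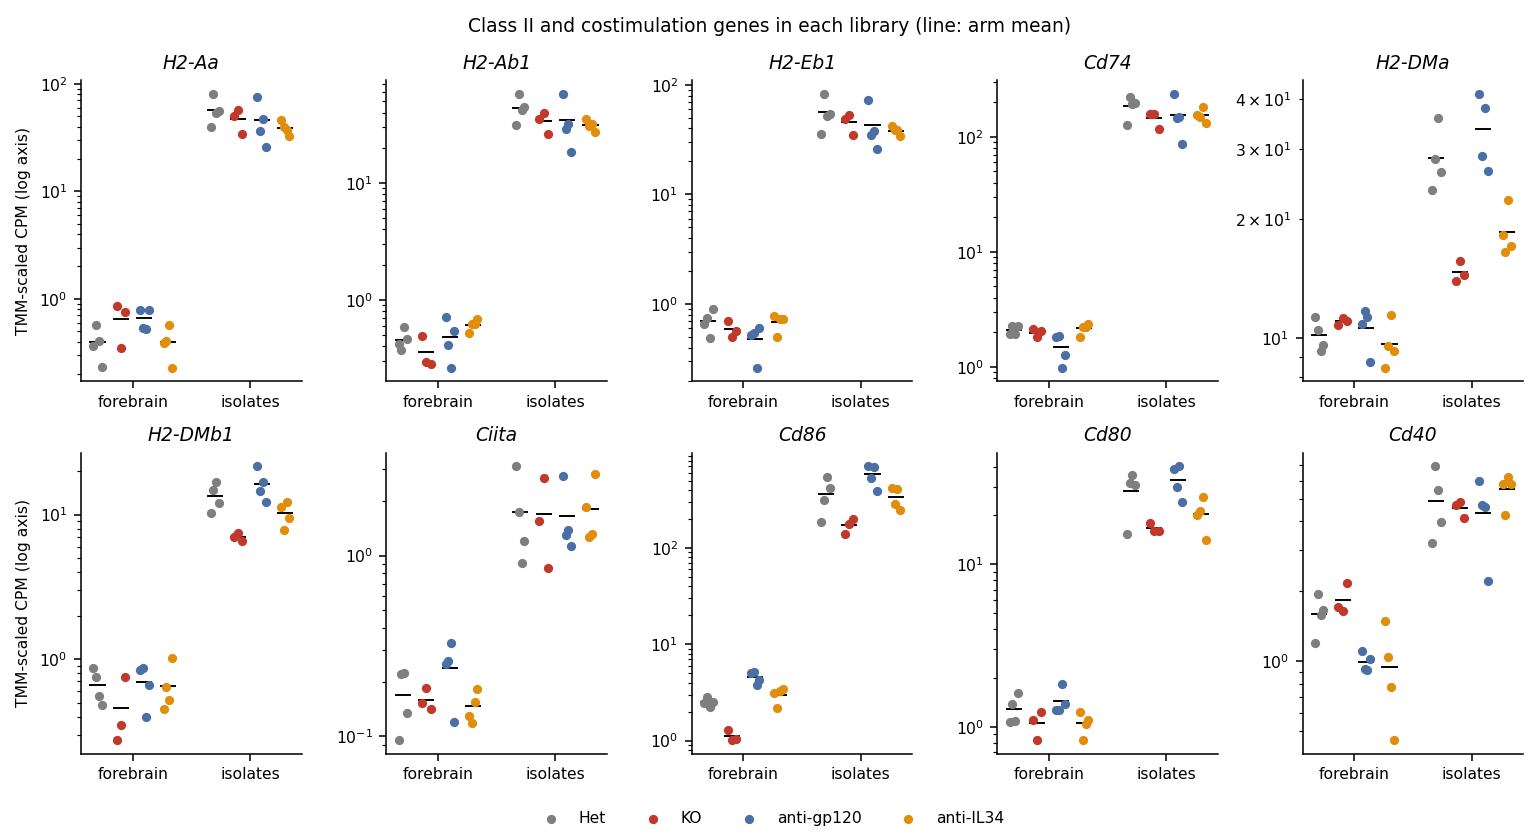
TMM-scaled CPM on log axes for each of the 10 genes, with 1 point per library and a line at the arm mean, forebrain on the left and isolates on the right of each panel. In the isolates KO lies below every Het library for H2-DMa and H2-DMb1, while the points of H2-Aa, Cd74, Ciita and Cd40 overlap, and in the forebrain KO lies below Het for Cd86.

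H2-Aa and H2-Ab1 encode the alpha and beta chains of the I-A molecule, and H2-Eb1 the beta chain of I-E. None of the 3 passed in any comparison between arms. H2-Aa read 39.6, 80.5, 53.3 and 55.8 CPM in the Het isolates, and 50.1, 56.7 and 33.9 in the KO isolates. It read 75.4, 36.7, 46.6 and 26 CPM in the anti-gp120 isolates, and 46, 39.4, 37.1 and 32.5 in the anti-IL34 isolates. The arms overlap in both experiments, and the widest spread is among the control libraries. For H2-Aa the difference was -0.3 on the log2 scale (95% interval -0.93 to 0.34) for KO minus Het and -0.29 (-0.93 to 0.36) for anti-IL34 minus anti-gp120. H2-Ab1 gave -0.38 (-0.92 to 0.15) and -0.16 (-0.81 to 0.5), and H2-Eb1 gave -0.31 (-0.96 to 0.34) and -0.18 (-0.79 to 0.43). Every one of these intervals includes 0 and reaches down to -0.79 or lower.

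In the forebrain H2-Aa averaged 0.393 ± 0.141 CPM in Het, 0.655 ± 0.269 in KO, 0.66 ± 0.148 in anti-gp120 and 0.398 ± 0.139 in anti-IL34 (SD, n = 4, 3, 4 and 4). The ranges of these arms overlap. The order of the 8 arm means put the 4 isolate arms above the 4 forebrain arms for H2-Aa, H2-Ab1 and H2-Eb1, and within a tissue neighbouring arms did not differ beyond their spread. Isolates of anti-gp120 animal 15 had the lowest level of their arm for all 3 chains, and those of anti-gp120 animal 1 the highest.

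Cd74, the invariant chain, did not pass between arms in either tissue. Its isolate levels were 126, 220, 194 and 198 CPM in Het and 159, 159 and 116 in KO. They were 236, 147, 150 and 86.8 CPM in anti-gp120 and 154, 148, 182 and 133 in anti-IL34. The arms overlap in both experiments. Its log2 difference was -0.35 (-0.89 to 0.19) after deletion and 0.00 (-0.64 to 0.64) after the antibody, beside medians of 0.02 and 0.06 over all genes tested. In the forebrain Cd74 averaged 2.1 ± 0.196 CPM in Het and 1.99 ± 0.16 in KO, with 1.48 ± 0.423 in anti-gp120 and 2.16 ± 0.231 in anti-IL34 (SD, n = 4, 3, 4 and 4).

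The H2-DM genes fell in KO isolates. H2-DMa read 23.7, 28.2, 35.9 and 26.3 CPM in Het and 14, 15.7 and 14.4 in KO. Every KO library lies below every Het library, and the KO mean was 51.5% of the Het mean. The log2 change was -0.95 with a standard error of 0.16 (n = 4 and 3, edgeR adjusted p = 0.02602). H2-DMb1, the other chain of H2-DM, read 10.3, 14.8, 16.7 and 12.1 CPM in Het and 6.96, 7.48 and 6.52 in KO, again with no overlap. Its log2 change was -0.94 with a standard error of 0.2 (edgeR adjusted p = 0.04721). These 2 were the members that passed among 10 tested in KO isolates, where 5.22% of all tested genes fell. They were also the 2 members whose arms did not overlap downward, where 19.4% of all tested genes had such arms. The member median was -0.37, beside 0.02 over all genes. Leaving out Het animal 20 or 23, or KO animal 3, 6 or 24, ended both calls: the log2 change then stayed between -0.98 and -0.89 for H2-DMa (edgeR adjusted p 0.1001 to 0.2466) and between -0.99 and -0.85 for H2-DMb1 (0.1406 to 0.2936). With DESeq2's size factors in edgeR, H2-DMb1 had an adjusted p of 0.05518.

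After the antibody, H2-DMa in the isolates read 41.3, 28.8, 38 and 26.4 CPM in anti-gp120 and 18.2, 16.5, 22.3 and 17.1 in anti-IL34. The 2 arms do not overlap, as for 13.1% of all tested genes in the downward direction. This gave a log2 difference of -0.81 (-1.23 to -0.39, edgeR adjusted p = 0.07319). H2-DMb1 read 21.6, 14.6, 16.7 and 12.2 CPM in anti-gp120 and 11.4, 7.83, 12.3 and 9.52 in anti-IL34, which overlap by the lowest control library. Its log2 difference was -0.64 (-1.15 to -0.12, edgeR adjusted p = 0.1572). Without anti-gp120 animal 15, H2-DMa had -0.95 (0.00508) and H2-DMb1 -0.79 (0.0175), with the edgeR adjusted p in brackets. That fit called 6905 genes in all, against 110 with all 8 libraries. No member passed when any other single animal was left out. With all 8 libraries kept, H2-DMa had an adjusted p of 0.003834 in DESeq2, and in edgeR 0.02361 without the expression filter, 0.03182 without the sex term and 0.01406 in a fit of all 15 isolates. H2-DMb1 passed under none of these 4 settings, which called 2015, 819, 983 and 988 genes in all, in the same order.

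H2-DMa in the forebrain stayed between 8.45 and 11.7 CPM in all 15 libraries. Its log2 difference there was 0.12 (-0.07 to 0.31) after deletion and -0.14 (-0.42 to 0.13) after the antibody. H2-DMb1 in the forebrain lay between 0.276 and 1.01 CPM. The deletion effect on H2-DMa was lower in isolates than in forebrain by -1.03 on the log2 scale (standard error 0.19, edgeR adjusted p = 0.02207). It was the only member of 10 to pass that test, which 2.43% of all tested genes passed in the same direction. A fit that blocks on the animal (replicate block) gave the value -1.03 with an edgeR adjusted p of 0.103, and 0 genes in all passed in that fit, where 599 had passed without the block. Leaving out Het animal 20 or 23, or KO animal 3, 6 or 24, also ended the call, at values from -1.08 to -1 and adjusted p from 0.09642 to 0.3764. The same comparison for the antibody called 0 members in edgeR and 0 in DESeq2, with 1 at an unadjusted p under 0.05, where 0.0924% of all tested genes passed in either direction. There H2-DMa had -0.69 (-1.22 to -0.16, edgeR adjusted p = 0.1914), and -0.73 with an adjusted p of 0.01104 without anti-gp120 animal 15. Without that animal 5565 genes passed in all, against 17 with it. Brd2, which overlaps H2-DMa on the opposite strand, averaged 387 CPM in Het, 285 in KO, 508 in anti-gp120 and 445 in anti-IL34 isolates. Its part in the H2-DMa counts was not tested.

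Ciita, the class II coactivator, was the lowest of the members. Its isolates read 3.12, 1.74, 0.912 and 1.2 CPM in Het and 1.56, 2.7 and 0.854 in KO. They read 2.76, 1.3, 1.39 and 1.14 CPM in anti-gp120 and 1.85, 1.27, 1.32 and 2.82 in anti-IL34. Each arm holds both high and low libraries. For Ciita the log2 difference was 0.06 (-1.27 to 1.39) after deletion and -0.01 (-0.79 to 0.78) after the antibody, the first of them the widest interval of any member in the isolates. In the forebrain Ciita rested on 2 to 19 reads per library and was below the filter of both arm comparisons.

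Cd86, a ligand of CD28 and CTLA-4 on T cells, fell in the KO forebrain. It read 2.44, 2.84, 2.21 and 2.53 CPM in Het and 1.29, 1.02 and 1.04 in KO. No KO library reaches a Het library. The log2 change was -1.18 with a standard error of 0.18 (n = 4 and 3, edgeR adjusted p = 0.00644). Cd86 was the only 1 of the 9 members tested there to pass, where 0.615% of all tested genes fell. It was also the only member without overlap, beside 5.24% of all tested genes in that direction. The member median was -0.28, beside -0.0002 over all genes. Without KO animal 6 the log2 change was -1.07 with an adjusted p of 0.072, and the call held without each of the other 6 libraries.

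After the antibody, forebrain Cd86 read 4.99, 5.16, 3.75 and 4.21 CPM in anti-gp120 and 3.12, 2.18, 3.27 and 3.44 in anti-IL34. The arms do not overlap. This gave a log2 difference of -0.67 (-1.06 to -0.27, edgeR adjusted p = 0.2431). Among the 9 members tested in this comparison 0 passed in edgeR and 0 in DESeq2, while 2 had an unadjusted p under 0.05, Cd86 and H2-Aa. Over all tested genes 0.717% passed in either direction and 0.192% were higher. Cd86 and Cd80 were the 2 members with lower arms that did not overlap, beside 2.07% of all tested genes. Without the expression filter the adjusted p of Cd86 was 0.01252 at the same log2 difference.

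Isolate Cd86 read 185, 312, 539 and 418 CPM in Het and 140, 178 and 200 in KO, so that the lowest Het library lies among the KO libraries. The log2 difference was -1.1 (-1.96 to -0.25, edgeR adjusted p = 0.1115). Without Het animal 1, that lowest library, it was -1.25 with an adjusted p of 0.02025, and without Het animal 21 -0.78 with 0.03721. DESeq2 gave -1.1 with 0.02538. These fits called 5756, 3115 and 3887 genes in all, in that order, against 976 in the main edgeR fit. The anti-gp120 isolates read 702, 527, 698 and 391 CPM and the anti-IL34 isolates 416, 286, 409 and 246, which overlap by 1 control library, animal 15. The log2 difference was -0.73 (-1.33 to -0.14, edgeR adjusted p = 0.1577), and -0.9 with 0.01217 without that animal. Without animal 15 edgeR called 6905 genes in all, against 110 with it. Of the 10 members, 0 passed in edgeR after the antibody in the isolates, 1 (H2-DMa) in DESeq2, and 4 had an unadjusted p under 0.05. Over all tested genes 0.626% passed there in edgeR in either direction, and DESeq2 called 2015 of the 17570 genes.

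Cd80, the second ligand of CD28 and CTLA-4, read 15.4, 31.6, 35.4 and 30.8 CPM in Het isolates and 17.9, 16.1 and 16.1 in KO isolates. Het animal 1 lies below every KO library, and the other 3 Het libraries lie above them all. Its log2 difference was -0.76 (-1.42 to -0.1, edgeR adjusted p = 0.1291), and -0.94 with 0.009169 without Het animal 1. The anti-gp120 isolates read 38.5, 29.9, 40.2 and 24.4 CPM and the anti-IL34 isolates 20.1, 21.3, 26 and 14.1. The log2 difference was -0.65 (-1.16 to -0.13, edgeR adjusted p = 0.1527), and -0.81 with 0.009807 without anti-gp120 animal 15. In all, 5756 genes passed without Het animal 1, against 976 with it, and 6905 without anti-gp120 animal 15, against 110 with it. In the forebrain Cd80 spanned 1.07 to 1.61 CPM in Het, 0.83 to 1.23 in KO, 1.26 to 1.84 in anti-gp120 and 0.831 to 1.24 in anti-IL34.

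Cd40, the receptor for CD40 ligand on T cells, passed in no comparison between arms. Its isolates read 3.23, 6.91, 5.44 and 3.99 CPM in Het and 4.69, 4.87 and 4.14 in KO. The anti-gp120 isolates read 5.95, 4.69, 4.6 and 2.21 CPM and the anti-IL34 isolates 5.8, 4.26, 6.24 and 5.81. The arms overlap in both experiments. Its log2 difference was -0.1 (-0.78 to 0.57) after deletion and 0.34 (-0.34 to 1.03) after the antibody. In the forebrain Cd40 averaged 1.6 ± 0.314 CPM in Het and 1.85 ± 0.289 in KO, above 0.996 ± 0.0906 in anti-gp120 and 0.944 ± 0.438 in anti-IL34 (SD, n = 4, 3, 4 and 4), and what separates the 2 experiments (genotype, treatment and any difference in handling) cannot be told apart.

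**Figure D2:**
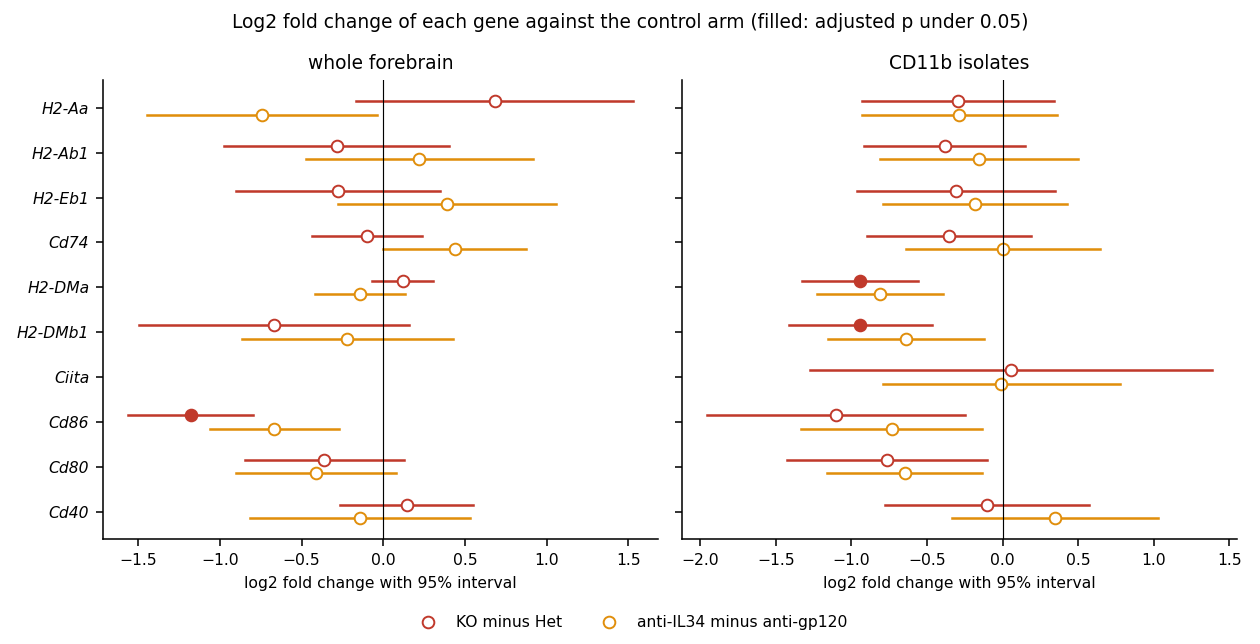
Log2 fold change and 95% interval of each gene for KO minus Het and anti-IL34 minus anti-gp120, in forebrain (left) and isolates (right); filled points passed and Ciita was not tested in the forebrain. The filled points are Cd86 in the forebrain and H2-DMa and H2-DMb1 in the isolates, all for KO minus Het.

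The deletion and the antibody were also set against each other, as the difference of their effects. In the forebrain 0 of 10 members passed in edgeR and 0 in DESeq2, 1 (H2-Aa, 1.42) had an unadjusted p under 0.05, and 0.0101% of all tested genes passed. In the isolates 0 members passed in edgeR and 0 in DESeq2, 0 had an unadjusted p under 0.05, and 0% of all tested genes passed in edgeR. The difference for forebrain Cd86 was -0.51 (-1.04 to 0.02), and for isolates it was -0.11 (-0.66 to 0.43) for H2-DMa and -0.35 (-1.32 to 0.63) for Cd86. All 3 intervals include 0, and a missed threshold does not show that deletion and antibody acted alike.

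A fit chosen after the data had been seen used all 15 libraries of a tissue and tested the mean of both effects. In the isolates 4 of 10 members fell, H2-DMa by 0.91 (edgeR adjusted p = 0.0002863), H2-DMb1 by 0.81 (0.002286), Cd86 by 0.93 (0.009124) and Cd80 by 0.73 (0.01021), on the log2 scale, where 23.2% of all tested genes fell. In the forebrain Cd86 alone fell among 10 members, by 0.91 (edgeR adjusted p = 0.0002726), where 1.21% of all tested genes fell. All 5 of these calls held in each of 19 other fits, 15 of them leaving out 1 library. The class II chains, Cd74, Ciita and Cd40 did not pass in either tissue. For the isolates the interval of the mean effect was -0.75 to 0.2 for H2-Aa, -0.59 to 0.23 for Cd74 and -0.33 to 0.58 for Cd40. Markers of other brain cells were higher in the isolates in the same fit: 5 of 6 neuron markers rose (list median 0.95), 3 of 5 astrocyte markers (0.70) and 2 of 5 oligodendrocyte markers (0.86), beside 21% of all tested genes. Neuron markers summed to 108 to 403 CPM in Het, 365 to 603 in KO, 192 to 580 in anti-gp120 and 420 to 728 in anti-IL34 isolates. In edgeR 0 of these 16 markers passed in either isolate comparison taken alone. Their part in the members' values was not tested.

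Microglia markers moved in the same libraries as the members that fell. Of 11 microglia markers tested, 11 fell in KO isolates, 10 in KO forebrain, 10 in anti-IL34 forebrain and 8 in anti-IL34 isolates, where 5.22%, 0.615%, 0.525% and 0.603% of all tested genes fell, in the same order. The summed level of 12 microglia markers in KO isolates was 31.5% of the Het mean (29.2% to 33.3%), and in anti-IL34 isolates 42.9% of the anti-gp120 mean (35.3% to 54.7%). On the same scale Cd86 stood at 47.5% and 58.5%, Cd80 at 59% and 61.3%, H2-DMa at 51.5% and 55.2%, and H2-DMb1 at 51.8% and 63.1%. H2-Aa stood at 81.8% and 83.9%, H2-Ab1 at 77.2% and 90.9%, H2-Eb1 at 81% and 89.5%, and Cd74 at 78.3% and 99.3%. Oligodendrocyte markers also fell in KO forebrain, 4 of 5 tested beside 0.615% of all genes (list median -0.37), with sums of 4830 to 5783 CPM in Het and 3933 to 4201 in KO, and their part in the members' values was not tested. In these bulk samples fewer cells of a type and less RNA per cell cannot be told apart.

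Other immune cells, some of which carry class II genes, were followed through their own markers. The sum of 10 border-associated macrophage markers was 1299 to 1521 CPM in Het, 603 to 1142 in KO, 1145 to 1771 in anti-gp120 and 581 to 824 in anti-IL34 isolates, and 1 of 10 tested fell in KO isolates and 0 of 10 in anti-IL34 isolates. In the forebrain it was 29.9 to 38.4 CPM in Het, 21.8 to 27.9 in KO, 34.8 to 44.3 in anti-gp120 and 14.2 to 27.0 in anti-IL34, so the arms do not overlap in either experiment or tissue. In edgeR 0 of 9 tested passed in KO forebrain and 1 of 7 fell in anti-IL34 forebrain, beside 0.525% of all genes. The mean of both effects called 2 of 9 lower in forebrain and 3 of 10 in isolates, beside 1.21% and 23.2% of all genes. The isolate sum of 9 dendritic cell markers was 66.4 to 89.3, 58.6 to 74.5, 58.5 to 94.8 and 69.7 to 97.1 CPM in Het, KO, anti-gp120 and anti-IL34, and 1 of 7 tested fell in KO isolates. Of the 9 dendritic cell markers, Xcr1 and Clec9a averaged at most 0.115 and 0.265 CPM in any isolate arm. In control animals 6 of 7 tested dendritic cell markers were higher and 1 was lower in isolates than in forebrain. The shares of all tested genes there were 40.8% and 43.3%. B cell markers summed to 140 to 284 CPM in Het and 64.9 to 81.5 in KO, mostly from Ighm (169 and 65.5 CPM on average), and 3 of 6 tested fell in KO isolates. In that comparison 5.22% of all tested genes fell. T cell markers summed to 4.94 to 9.79 CPM over all isolates. Neutrophil and monocyte markers summed to 39.3 to 56.4, 41.7 to 90.8, 48.8 to 322 and 174 to 468 CPM in Het, KO, anti-gp120 and anti-IL34 isolates. The part of these cells in the members' values was not tested.

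**Figure D3:**
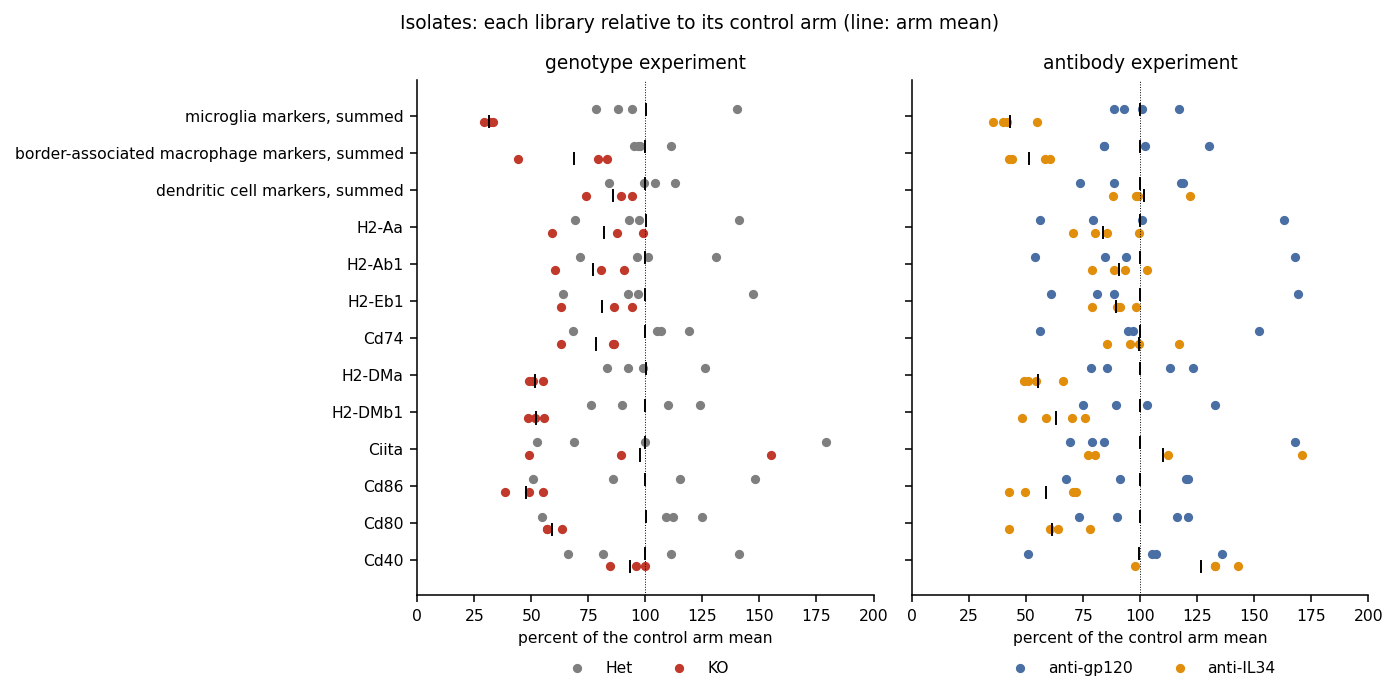
Each isolate library as a percent of its control arm's mean, for summed marker lists and for the 10 genes; points are libraries and black ticks arm means, Het and KO on the left, anti-gp120 and anti-IL34 on the right. Microglia markers sit near 31.5% in KO and 42.9% in anti-IL34, H2-DMa, H2-DMb1, Cd86 and Cd80 between 47.5% and 63.1%, and H2-Aa, H2-Ab1, H2-Eb1 and Cd74 between 77.2% and 99.3%.

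The other genes of the class II pathway were read from a list of 20 genes in the table. In KO isolates 6 of the 18 tested fell and 0 rose, where 5.22% of all tested genes fell, with a list median of -0.89 beside 0.02 over all genes. Marchf1, a ubiquitin ligase that removes class II and CD86 from the surface, changed by -0.89 (edgeR adjusted p = 0.01644) and H2-Oa, a chain of the H2-DM inhibitor H2-O, by -1.77 (0.0252). H2-Ob, its partner chain, changed by -1.29 (0.03542) and Ctss, the protease that trims the invariant chain, by -1.52 (0.03342). In KO forebrain 2 of 17 fell, Ctss by 1.34 (edgeR adjusted p = 4.223e-07) and Lgmn, an endosomal protease, by 0.27 (0.01064), where 0.615% of all tested genes fell, with a list median of -0.03. Lgmn had an adjusted p of 0.2411 without KO animal 3 and 0.05901 without KO animal 24. After the antibody Ctss fell by 0.92 in the forebrain (0.01607, 1 of 16 tested, list median -0.06 beside 0.0008) and Ctsd, another endosomal protease, by 1.07 in the isolates (0.04277, 1 of 18, list median -0.44 beside 0.06). Forebrain Ctss after the antibody had an adjusted p of 0.1925 when anti-IL34 animal 11 was left out and of 0.05063 when anti-gp120 animal 7 was. In control animals 14 of 18 were higher and 2 lower in isolates than in forebrain, beside 40.8% and 43.3% of all tested genes.

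Of the interferon-gamma axis, the main known inducer of Ciita, 9 genes were listed. In KO isolates 2 of 8 tested fell, beside 5.22% of all tested genes, the receptor chain Ifngr1 by 1.29 (edgeR adjusted p = 0.01457) and Irf2 by 0.72 (0.04996), with a list median of -0.73, and in KO forebrain 0 of 7 passed in edgeR with a list median of 0.01. Irf2 had an adjusted p of 0.06551 with DESeq2's size factors in edgeR. Ifng itself averaged at most 0.1 CPM in any arm.

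Of 16 other costimulatory and coinhibitory genes, 5 of 12 tested fell in KO isolates, beside 5.22% of all tested genes, with a list median of -0.99. The named ones are Vsir (VISTA, an inhibitory ligand) by 1.64 (edgeR adjusted p = 0.01377), Icosl (the ligand of ICOS) by 1.27 (0.01557), Lgals9 (galectin 9) by 1.3 (0.01913) and Havcr2 (TIM-3, an inhibitory receptor) by 1.5 (0.02461). In KO forebrain Vsir fell by 0.86 (edgeR adjusted p = 6.953e-05), 1 of 11 tested beside 0.615% of all genes, with a list median of -0.27. In anti-IL34 forebrain Vsir fell by 1.13 (0.0003174) and Havcr2 by 1.18 (0.00843), 2 of 10 tested beside 0.525% of all genes, with a list median of 0.08. Havcr2 had adjusted p of 0.05534, 0.05683 and 0.05017 without anti-gp120 animals 1 and 7 and anti-IL34 animal 11. In anti-IL34 isolates Vsir fell by 1.12 and Cd276 by 0.96 (both edgeR adjusted p = 0.0399), 2 of 12 tested beside 0.603% of all genes, with a list median of -0.46. Vsir was thus lower in both tissues after deletion and after the antibody, with forebrain ranges of 17.5 to 18 CPM in Het, 8.56 to 10.2 in KO, 21.5 to 28.5 in anti-gp120 and 11.2 to 12.4 in anti-IL34.

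The receptors of these ligands on T cells formed a list of 5 genes. In KO isolates 1 of 3 tested fell, beside 5.22% of all tested genes, Icos by 1.49 (edgeR adjusted p = 0.03009), from 4.52 to 6.46 CPM in Het to 1.53 to 2.72 in KO. None passed in the other arm comparisons, where edgeR tested 3, 2 and 3 of them. Leaving out Het animal 20 or 23, or KO animal 3, 6 or 24, ended the call of every gene named here for KO isolates, with highest adjusted p from 0.173 for Icosl to 0.3295 for Irf2. For anti-IL34 isolates, leaving out any 1 of the control animals 1, 7 and 8 or of the anti-IL34 animals 2, 10 and 24 ended the calls of Ctsd, Cd276 and Vsir, with highest adjusted p of 0.2252, 0.2165 and 0.2226, each without anti-gp120 animal 7. The deletion effect was lower in isolates than in forebrain for Marchf1 (-0.83, edgeR adjusted p = 0.009794), Ifngr1 (-0.99, 0.02046) and Nfya (-1.06, 0.04439), the DNA-binding Y box subunit, and blocking on the animal gave them adjusted p of 0.09123, 0.09538 and 0.1112. Without KO animal 3 they had 0.3527, 0.3898 and 0.4359, and they were also lost without KO animal 6 or 24 or Het animal 20 or 23.

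How the members varied among animals of the same arm was described by Pearson's r over the 15 isolates after arm means were removed. These libraries share composition and depth, and no test is given. H2-Aa and H2-Ab1 had r of 0.98, H2-Ab1 and H2-Eb1 0.98, H2-Aa and H2-Eb1 0.97, and H2-Ab1 and Cd74 0.95. H2-DMa and H2-DMb1 had r of 0.91, Cd86 and Cd80 0.85, and H2-DMa and Cd86 0.8. Pairs across these groups ranged widely, with 0.81 for Cd74 and H2-DMb1, 0.6 for H2-Aa and H2-DMa and 0.47 for H2-Aa and Cd86. Cd40 had r of 0.86 with Cd74, 0.85 with H2-DMb1, 0.83 with H2-Ab1, 0.61 with Cd80 and 0.56 with Cd86. Ciita had r of 0.35 with H2-Aa, -0.04 with H2-DMa, -0.43 with Cd86 and -0.46 with Cd80.

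**Figure D4:**
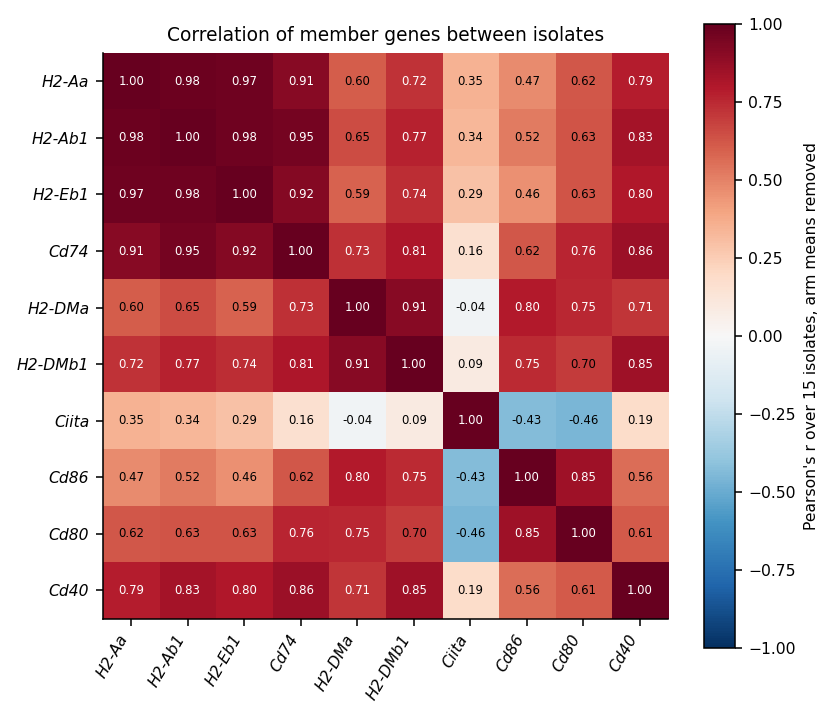
Pearson's r between each pair of the 10 genes over 15 isolate libraries, on log2 CPM with arm means removed; red is positive and blue negative. H2-Aa, H2-Ab1, H2-Eb1 and Cd74 form a block of at least 0.91, H2-DMa pairs with H2-DMb1 at 0.91 and Cd86 with Cd80 at 0.85, and Ciita is negative with Cd86 and Cd80.

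The same measure over all genes named the closest genes outside the members. For H2-Aa they were Slc66a3 (0.92), Slamf7 (0.92), Plbd1 (0.92), S100a11 (0.91) and Il1b (0.9). For Cd86 in the isolates they were Csf1 (0.99), Pfkfb3 (0.99), Cd300a (0.99), Neurl3 (0.98) and Rbm47 (0.98). For Cd80 they included Fbxo38 (0.96), Emp1, Ttc17 and Mpp7. For Cd40 they were Uvssa (0.95), Tyk2, Saysd1, Yif1b and Arrdc1, and for Ciita Efemp2 (0.86), Kcnmb1, Rwdd3, Gsto2 and Slc35b4. In the forebrain the closest genes were Isoc2a (0.9), Vwa3b, Dipk1c, Nat8f4 and 4930432B10Rik for Cd86, Wrnip1 (0.91), Ahcy, Slc30a10, Hilpda and E530001F21Rik for Cd40, and Scpep1 (0.85), Psmc5, Cc2d2a, Fhad1 and Oser1 for Cd80.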

How the data were processed

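RNA was sequenced from forebrain and from CD11b isolates of 15 mice, with SMART-Seq v4 libraries per the labels. The authors' deposited counts are whole reads per gene, made with STAR 2.7.5c and featureCounts 1.6.3 on GRCm38, per the submitters' processing notes; whether strand was used is not given in the sources used here. The deposited gene Length equals the GENCODE M21 gene span for 51183 of 51498 matched genes and the exon union for 0 of 32301 genes with introns. The authors' deposited TPM values list 5 of the 10 members and were used only for ratios of arm means and to set Cd74 beside Cd86. 6 count columns were not mapped to a sample and were not used.

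Counts were tested in R 4.3.3 with edgeR 4.0.16 (TMM, filterByExpr, quasi-likelihood F test, sex as covariate), with p-values adjusted by Benjamini-Hochberg over all genes. Arm comparisons used the 7 or 8 libraries of that experiment and tissue, and tissue interactions both tissues. Intervals are 95%. DESeq2 1.42.0, its size factors, no filter, no sex term, all libraries of a tissue, the replicate block and leaving out each animal were alternatives, and the mean of both effects was added after the data were seen. Fits of both tissues lost both libraries of the animal left out. The tests were checked on simulated data. All members are described, and up to 4 passing genes with the smallest p are named per list; some genes that these rules name are not reported here. The members and lists were chosen with earlier results of these data known.

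The same animal gave both libraries. Deviations from arm means correlated between the 2 tissues of each animal with r above 0.1 in 15 of 15 animals (median 0.24, range 0.111 to 0.416, 14383 genes). Libraries of different animals were not correlated in this way. These values alone therefore do not show the pairing, which was taken from the animal numbers. Replicates differed beyond counting noise in all 42 pairs (lowest chi-square per degree of freedom 5.48).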

Additional observations from a re-analysis of the deposited data

Results flagged for a closer look

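Ciita in the isolates of anti-gp120 animal 1 stood apart from the rest of its arm at 2.76 CPM, with the next library at 1.39 CPM and the gap 0.846 of the whole range. It was 1 such library among 60 groups of 4 libraries looked at, and chance gives about 1 in 20.

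The effect of the deletion differed between isolates and forebrain for H2-DMa (-1.03 on the log2 scale, edgeR adjusted p = 0.02207), Marchf1 (-0.83, 0.009794), Ifngr1 (-0.99, 0.02046) and Nfya (-1.06, 0.04439), each with the lower value in isolates. In all 7 animals of that experiment both tissues come from the same mouse, and blocking on the mouse gave adjusted p of 0.103, 0.09123, 0.09538 and 0.1112.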

How the results depend on the processing

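Members past the threshold changed in number under these settings. KO isolates, with 2 as reported, had 1 with DESeq2's size factors in edgeR (H2-DMa) and 3 with DESeq2, without the filter and with all 15 libraries (Cd86 added). Anti-IL34 forebrain had 1 without the expression filter (Cd86). Anti-IL34 isolates had 1 each with DESeq2, without the filter, without the sex term and with all 15 libraries (H2-DMa in all 4). The deletion effect in isolates minus forebrain had 0 with the replicate block, which changed no other count of members, and the antibody effect in isolates minus forebrain had 1 without the filter (H2-DMa). Leaving out 1 animal gave 0 to 1 members in KO forebrain, 0 to 4 in KO isolates, 0 in anti-IL34 forebrain, 0 to 4 in anti-IL34 isolates, 10 between tissues, 0 to 1 in each effect difference between tissues, 0 between deletion and antibody in either tissue, and 1 and 4 for the mean of both effects in forebrain and isolates. No called member changed sign. Counts over all genes moved more: KO isolates had 976 calls, against 3887 with DESeq2, 1993 without the filter, 2189 without the sex term and 2734 with all 15 libraries, and anti-IL34 isolates had 110, against 2015, 819, 983 and 988. KO forebrain had 120, against 381 without the filter, and anti-IL34 forebrain 123, against 198 with DESeq2, 349 without the filter and 204 with all 15 libraries. The deletion effect in isolates minus forebrain had 599, against 3635, 1569 and 2400 with DESeq2, without the filter and without the sex term, and the antibody effect 17, against 1092, 1352 and 222 and 48 with DESeq2's size factors. Both had 0 with the replicate block in edgeR. Deletion minus antibody had 2 in forebrain, against 28 with DESeq2, 114 without the filter and 4 without the sex term, and 0 in isolates, against 35 with DESeq2 and 1 without the filter. The mean of both effects in forebrain had 253, against 503 without the filter. Leaving out single animals moved these counts. KO isolates had 0 calls without Het animal 20 or 23 or KO animal 3, 6 or 24, 5756 without Het animal 1 and 3115 without Het animal 21, while anti-IL34 isolates had 0 to 6 without control animal 1, 7 or 8 or treated animal 2, 10 or 24, 514 without treated animal 11 and 6905 without control animal 15. KO forebrain had 55 without KO animal 3 and 72 without KO animal 6, and anti-IL34 forebrain had 66, 41 and 77 without control animals 1, 7 and 8 and 25 and 73 without treated animals 11 and 24. The deletion effect in isolates minus forebrain had 5688 without Het animal 1, 3243 without Het animal 21 and 0 without each of the other 5, and the antibody effect had 5565 without control animal 15, 139 without treated animal 11 and 0 to 6 without each of the other 6. Deletion minus antibody in forebrain had 33, 5 and 3 without treated animals 10, 11 and 24, and in isolates 5 without control animal 1. The cause was not tested. In the forebrain the class II chains and Ciita rest on few reads, which limits what could be detected. Ratios of arm means in the deposited TPM values were 0.567 for Cd86 and 0.697 for Cd80 in KO isolates, against 0.475 and 0.59 in TMM-scaled CPM. The TPM ratios of the other 3 listed members in KO isolates were 0.917 for Cd74, 1.1 for Ciita and 1.09 for Cd40, against 0.783, 0.978 and 0.934, so Ciita and Cd40 changed direction. In anti-IL34 isolates Cd74 did so too, with 1.1 against 0.994. None of these 3 passed between arms.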

Other observations

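H2-Ea, the alpha chain that pairs with the H2-Eb1 product, had a single read in 1 of the 4 libraries of anti-IL34 isolates and 0 reads in the other 29 of 30 libraries, while H2-Eb1 averaged 38.3 to 56.1 CPM in the isolate arms. The labels give no strain, and the cause was not tested.

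In control animals Nfya was higher in isolates than in forebrain (2.43 on the log2 scale, edgeR adjusted p = 1.092e-11), whereas Nfyb was lower (-0.83, 1.528e-09) and Nfyc had -0.06 (0.3972). These 3 genes encode the subunits of the factor that binds the Y box. Rfxap, a subunit of the X box factor RFX, was lower in isolates (-0.91, 2.976e-08), while its partners Rfx5 (0.22, 0.01698) and Rfxank (0.71, 7.66e-08) were higher.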
